A study of Danio rerio with 4 samples.

Results

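Neurobeachin b (nbeab), mab21l1, which lies inside nbeab, and mab21l2, the relative of mab21l1, are 3 of the 20390 genes in a table of transcript levels from whole zebrafish embryos. The genes were taken by symbol, and they were chosen because of how they differed between the groups compared here: nbeab was among the deepest falls in the embryos injected with Cre, mab21l1 was lower at the same place, and mab21l2 was added as its relative. Their own levels and fold changes are therefore given as a description, with no test. Tests are given for other genes only: the neighbours on the chromosome, the gene families and the genes of the tissues in which the MAB21 genes are known to act.

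All embryos carried the transgene allele bns298: the hsp70l promoter, which heat activates, stands before a loxP-STOP-loxP cassette and then by npas4l-GGGGGLSRS-P2A-mCherry. While the stop is in place the promoter does not drive npas4l, whose product is a bHLH-PAS transcription factor without which endothelial and blood cells do not form, or the mCherry reporter linked to it. There were 2 libraries of uninjected embryos and 2 of embryos injected at the one-cell stage with Cre, the recombinase that removes the stop. All were kept at 28 °C, given 1 h at 37 °C as a heat shock and taken for RNA when they had 6 somites. The heat shock and the transgene are thus common to both groups, the promoter acts in any cell of the embryo, and no injected embryos without the transgene are included here, so what the injection, the recombinase and npas4l each contribute cannot be told apart.

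Neurobeachin is a very large scaffold protein with a BEACH domain. In mammals it anchors protein kinase A and is needed to bring receptors to synapses, and it is best known from neurons. MAB21L1 and MAB21L2 are small proteins whose fold resembles that of the innate immune sensor cGAS, and both are needed for normal eye development in mammals, with expression in the developing eye, midbrain and pharyngeal arches. In vertebrates these small genes sit inside genes of the neurobeachin family, MAB21L1 in the neurobeachin gene and MAB21L2 in its relative LRBA.

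The table holds both nested pairs. On the zebrafish build GRCz11, nbeab (ENSDARG00000105184) runs along the minus strand of chromosome 15 from 32895659 to 33325046, a span of 429388 bases, and mab21l1 (ENSDARG00000102047) lies within it on the plus strand, from 33070939 to 33073200. The gene lrba (ENSDARG00000031108) runs along the minus strand of chromosome 1 from 23919418 to 24349789, a span of 430372 bases, and mab21l2 (ENSDARG00000015266) lies within it on the plus strand, from 24076243 to 24078099. The plus-strand start of mab21l1 is 59.2% of the way through nbeab as nbeab is transcribed, and that of mab21l2 is 63.6% of the way through lrba. In the deposited positions mab21l1 is the only listed gene inside nbeab, and mab21l2 the only one inside lrba. RefSeq's annotation of another assembly, GRCz12tu, has 5 protein-coding genes inside nbeab, among them mab21l1, dclk1b, spartb and postnb, and has only mab21l2 as a protein-coding gene inside lrba. So dclk1b, spartb and postnb, treated here as neighbours, are inside nbeab in that annotation. The other zebrafish neurobeachin gene, nbeaa on chromosome 10, has no gene of the table inside it. The deposited positions do not say which parts of a host gene are exons, and for how strand was used in counting the sources used here give nothing. Reads from a nested gene and its host therefore cannot be told apart wherever their exons overlap. The same holds wherever unspliced host RNA covers the nested gene. Whether either occurs was not tested.

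Transcripts of nbeab were plentiful in uninjected embryos and scarce after Cre injection. The values, taken to be reads that the authors scaled with library size factors, were 492 and 607 in the uninjected libraries. In the Cre-injected libraries they were 21 and 28. Both Cre-injected libraries were far below both uninjected ones, and 28.8% of all genes tested were likewise lower without overlap between the groups. The means were 549.5 ± 81.3 and 24.5 ± 4.95 (SD, n = 2), a log2 fold change of -4.44 ± 0.22 (SE), and the summed reads were 22.4 times as many in uninjected embryos (95% exact counting interval 16.8 to 30.5). Within the libraries numbered 1 the ratio was 23.4, and within those numbered 2 it was 21.7. By the size of its fall nbeab was number 8 of the 16754 genes tested, and number 6 of the 9359 tested genes with an uninjected mean of at least 100.

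The nested gene mab21l1 was a weakly measured transcript that was also lower after Cre injection. Its values were 42 and 39 in the uninjected libraries and 9 and 4 in the Cre-injected ones. The groups did not overlap, as for the 28.8% of all genes tested that were lower in this way. The means were 40.5 ± 2.12 and 6.5 ± 3.54 (SD, n = 2), with a log2 fold change of -2.55 ± 0.50 (SE). The summed reads were 6.23 times as many in uninjected embryos, with a wide 95% exact counting interval of 3.45 to 12.2 because only 13 reads were left in the Cre-injected libraries together. Within the libraries numbered 1 the ratio was 4.67, and within those numbered 2 it was 9.75. On the log2(value + 1) scale used here the change of so low a gene is understated.

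The relative mab21l2 had more reads and a smaller difference. Its values were 283 and 271 in the uninjected libraries and 119 and 131 in the Cre-injected ones. The replicates lay close together, with means of 277 ± 8.49 and 125 ± 8.49 (SD, n = 2) and a log2 fold change of -1.14 ± 0.17 (SE). The groups did not overlap, which also held for the 28.8% of all genes tested that were lower in this way. The summed reads were 2.22 times as many in uninjected embryos (95% exact counting interval 1.91 to 2.58). The order of the falls in these libraries was thus nbeab, mab21l1 and mab21l2. The counting intervals of the 3 ratios cover counting error only, and the genes were chosen from these values. The order was therefore not tested. RNA came from whole embryos, so fewer cells of a type and less RNA per cell cannot be told apart in any of these values.

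**Figure D1:**
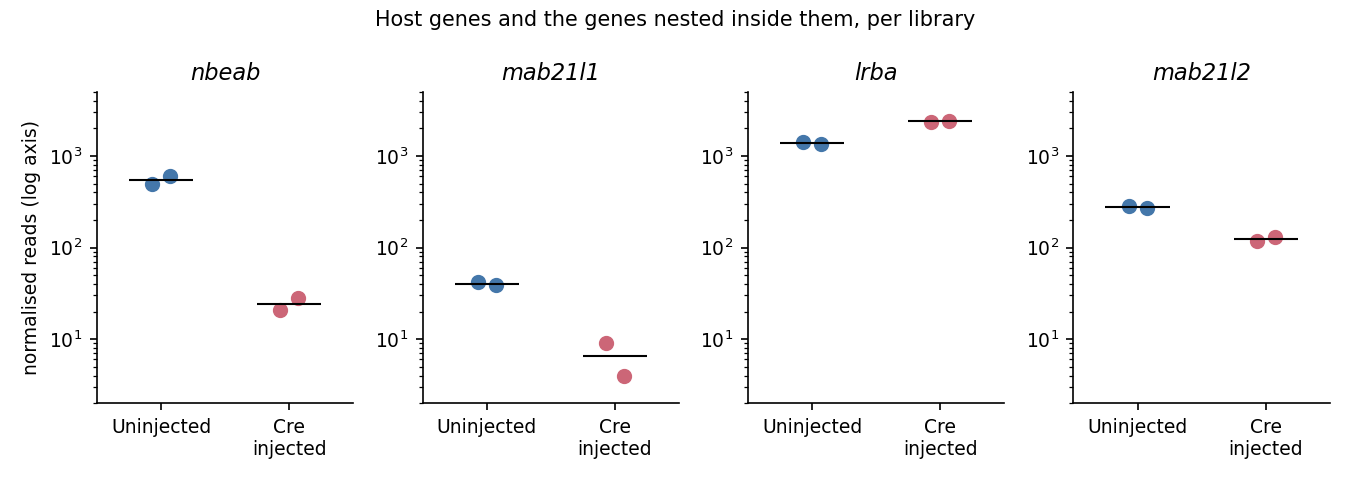
Normalised reads (log axis) of each host gene and of the gene nested inside it in the 2 uninjected (blue) and 2 Cre-injected (red) libraries; black lines are group means. The genes nbeab, mab21l1 and mab21l2 were lower in both Cre-injected libraries, and lrba was higher in both, at 2364 and 2432 against 1408 and 1336.

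The 2 host genes moved in opposite directions. In mammals LRBA is needed for the traffic of immune regulatory receptors. The values of lrba were 1408 and 1336 in the uninjected libraries and 2364 and 2432 in the Cre-injected ones, so it rose with a log2 fold change of 0.81 ± 0.11 (SE; adjusted p = 0.00067 by limma with Benjamini-Hochberg adjustment over all genes tested). With uninjected replicate 2 left out, the log2 fold change of lrba was 0.77. When limma was run without its mean-variance trend, lrba did not pass the test (adjusted p = 0.0966), at an unchanged log2 fold change. At the lrba locus the nested gene was lower while its host was higher, and at the nbeab locus both were lower.

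Ratios within a library do not depend on how libraries were scaled. For every 100 reads of lrba there were 20.1 and 20.3 reads of mab21l2 in the uninjected libraries and 5.03 and 5.39 in the Cre-injected ones. For every 100 reads of nbeab there were 8.54 and 6.43 reads of mab21l1 in the uninjected libraries and 42.9 and 14.3 in the Cre-injected ones. The first ratio fell and the second rose, each without overlap between the groups. The fall of the first had to follow, since mab21l2 was lower and lrba higher, each without overlap. It is therefore no separate result. The second was uneven between the Cre-injected libraries because it rests on 9 and 4 reads of mab21l1. As nbeab was chosen for its deep fall, most genes divided by it would rise, so the rise of the second ratio carries little weight. No share of other ratios without overlap was worked out. These ratios compare a gene with its host within these libraries and are not relative transcript abundances, since the values are not corrected for transcript length.

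**Figure D2:**
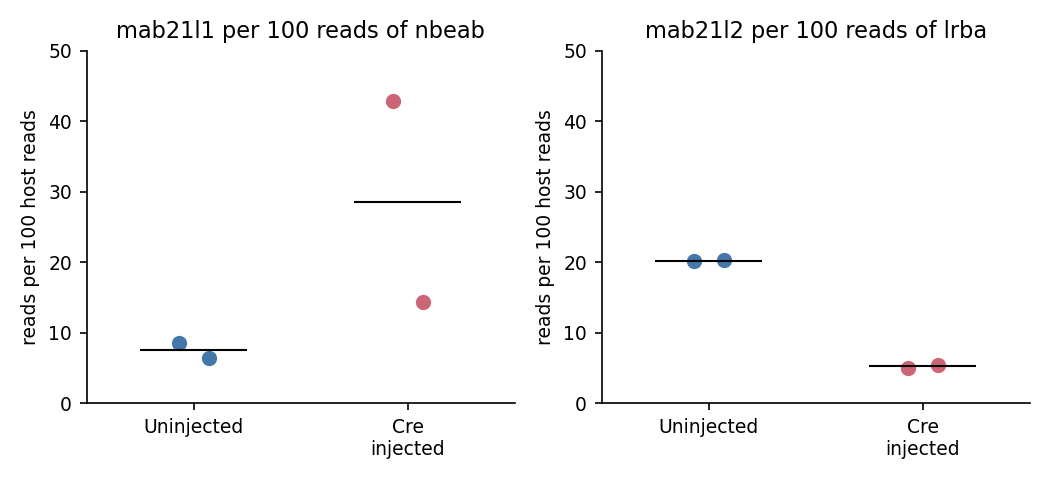
Reads of the nested gene per 100 reads of its host gene in each uninjected (blue) and Cre-injected (red) library, with group means as lines. The ratio of mab21l1 to nbeab was higher in both Cre-injected libraries, from 6.43 and 8.54 to 14.3 and 42.9, and the ratio of mab21l2 to lrba was lower in both, from 20.1 and 20.3 to 5.03 and 5.39.

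Other nested pairs give the background. Leaving out those of nbeab and lrba, the table held 274 pairs in which a tested protein-coding gene lies wholly inside another on the opposite strand. In 139 of these pairs the fold changes of the nested gene and its host had the same sign, and Pearson's r between them was -0.11 across pairs. The pairs share the same 4 libraries and are not independent replicates. Many also share a host, such as dusp19b or zgc:162936, so a few hosts enter both figures repeatedly. Both genes passed the test in 4 of the 274 pairs. Of all genes tested, 12.5% passed it in either direction, but that is a share of single genes. It is not comparable with a share of pairs in which both passed, and no matching share was worked out. In 1 of the 4, n4bp3 inside anxa6, both genes fell, and in the other 3 the nested gene and the host differed in direction.

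Some neighbours of nbeab on chromosome 15 fell, and most did not pass the test. Besides nbeab and mab21l1 the table lists 22 genes whose lower coordinate, on either strand, lies between 32 and 34 Mb of chromosome 15. Of the 22, 19 were tested. Of these, 4 fell and 0 rose at an adjusted p under 0.05 (limma), while 6.19% of all genes tested fell and 6.35% rose. At an unadjusted p under 0.05, 7 were lower and 1 was higher, where 14.3% of all genes tested were lower and 14.1% higher. The median log2 fold change of the 19 was -0.26, against 0.00 over all genes tested, and 14 of the 19 had a negative fold change. In 10 of the 19 both Cre-injected libraries were below both uninjected ones, as they were for 28.8% of all genes tested.

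The 4 genes that fell lie on both sides of nbeab. The nearest gene upstream of nbeab is stard13b, which encodes a GTPase-activating protein. It lies on the same strand beyond a gap of 142 kb, which separates its end from the start of nbeab. It had values of 220 and 179 in the uninjected and 137 and 115 in the Cre-injected libraries, a log2 fold change of -0.66 ± 0.19 (SE; limma adjusted p = 0.0446). The nearest gene downstream is dclk1b, for a doublecortin-like kinase of neurons, which ends 4.39 kb from the end of nbeab. It had values of 272 and 345 against 237 and 257 and did not pass the test (log2 fold change -0.31 ± 0.17 (SE), limma adjusted p = 0.241). The next genes in that direction both fell. The spartin gene spartb went from 57 and 56 to 31 and 22 (log2 fold change -1.08, limma adjusted p = 0.0474), and postnb, for the matrix protein periostin, went from 310 and 344 to 102 and 141 (-1.44, limma adjusted p = 0.00067). Farther on, the complement gene c4 fell from 45 and 42 to 3 and 4 (log2 fold change -3.31 ± 0.50 (SE), limma adjusted p = 0.00148), and its log2 fold change was -2.51 with a pseudocount of 5. Beside postnb, the clone-named gene CR855389.1 had 7 and 8 reads in the uninjected libraries and 0 in both Cre-injected ones. This is at least 5-fold lower against a floor of 3 reads over the group, and the gene was too low to be tested.

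Among genes of the stretch that did not pass the test, 2 with many reads were picked after their values were seen. The cohesin gene pds5b had values of 1653 and 1635 in the uninjected libraries and 1528 and 1537 in the Cre-injected ones (log2 fold change -0.10, limma adjusted p = 0.574), and fhdc4 had 396 and 411 against 428 and 387 (0.01, limma adjusted p = 0.964). Without uninjected replicate 1 or without uninjected replicate 2, only postnb of the 19 genes fell, and the adjusted p-values of c4, spartb and stard13b were between 0.0554 and 0.383 or between 0.05 and 0.24. Without Cre-injected replicate 2 the calls of spartb and stard13b were lost (adjusted p = 0.105 and 0.0592), and without Cre-injected replicate 1 there were 6 falls, the added ones being trim3a and VWDE. With equal library totals, upper-quartile scaling or non-robust shrinkage, spartb and stard13b did not pass either, at adjusted p-values of 0.0507 to 0.0622.

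**Figure D3:**
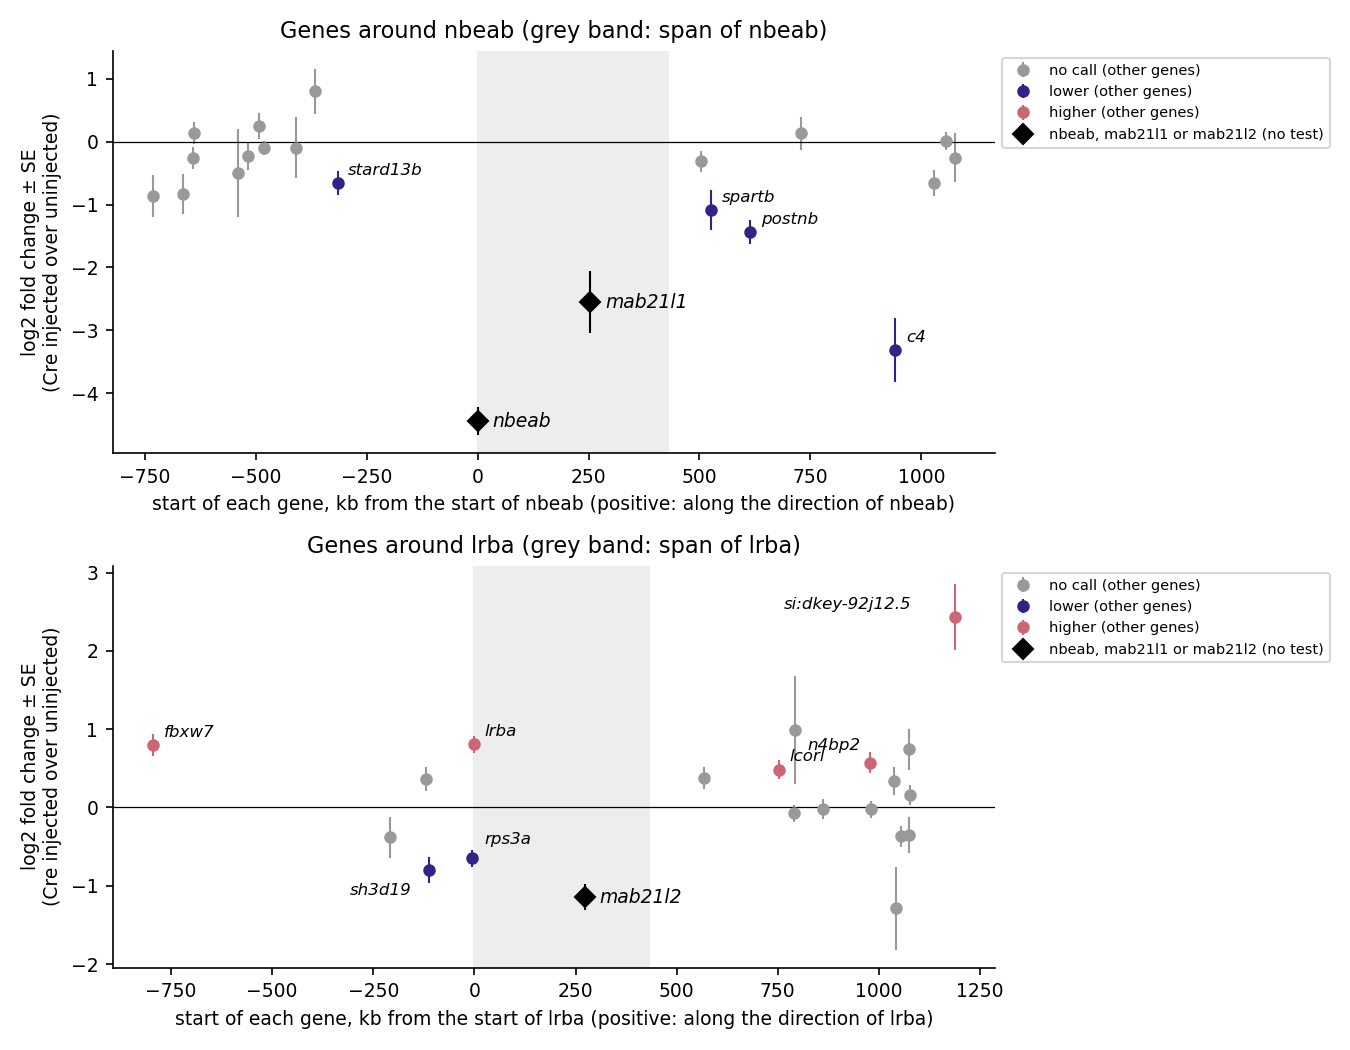
Log2 fold change (Cre-injected over uninjected, ± SE) of every tested gene in the 2-Mb stretches holding nbeab (top) and mab21l2 (bottom), against the distance of its start from the start of the host gene in kb. Around nbeab, 4 of 19 other genes fell and 0 rose, and around mab21l2, 5 of 20 other genes rose and 2 fell; nbeab, mab21l1 and mab21l2 are drawn as black diamonds without a test.

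The stretch around mab21l2 held calls in both directions. It was drawn as 21 other genes whose lower coordinate, on either strand, lies within 1 Mb of that of mab21l2. Of these, 20 were tested, 5 rose and 2 fell (limma), against 6.35% and 6.19% of all genes tested. The median log2 fold change was 0.25. Besides lrba, the ubiquitin ligase gene fbxw7 rose from 586 and 456 to 893 and 905 (log2 fold change 0.80, limma adjusted p = 0.00359). The genes n4bp2 (0.57), lcorl (0.48) and si:dkey-92j12.5 (2.43) rose too. The 2 that fell lie just upstream of lrba. They were the ribosomal protein gene rps3a, from 5898 and 5863 to 3478 and 4028 (log2 fold change -0.65, limma adjusted p = 0.00293), and sh3d19, from 388 and 377 to 251 and 191 (-0.80, limma adjusted p = 0.00888). Left out, uninjected replicate 1 reduced the rises to 3 and the falls to 0, and uninjected replicate 2 reduced them to 1 (si:dkey-92j12.5) and 0. The adjusted p-values of the lost genes were then between 0.114 and 0.299, or between 0.0542 and 0.316. Without Cre-injected replicate 1 or 2 there were 6 rises in each case, and 3 or 5 falls.

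Several neighbours of nbeab have relatives elsewhere in the table, which were picked by name after the values were seen. The relative of nbeab itself, nbeaa, had values of 57 and 86 in the uninjected and 102 and 72 in the Cre-injected libraries, which overlap (log2 fold change 0.29 ± 0.28 (SE), limma adjusted p = 0.535). The difference in fold change between nbeab and nbeaa was not tested. Next to nbeaa on chromosome 10, dclk1a had 36 and 18 against 31 and 23, with a mean of 27 in both groups (limma adjusted p = 0.94). The other chromosome 10 relatives had values of 115 and 153 against 87 and 81 for stard13a (-0.65, limma adjusted p = 0.0743), 265 and 251 against 247 and 219 for frem2a (-0.15, adjusted p = 0.577), and 7 and 5 against 2 and 9 for postna, too low to be tested. Thus stard13a and stard13b had nearly the same fold change, -0.65 and -0.66, on either side of the threshold. On chromosome 1 the relative of pds5b, pds5a, had 1826 and 1845 against 1898 and 1720 (-0.02, limma adjusted p = 0.916). Also on chromosome 1, n4bp2 rose from 460 and 552 to 764 and 736 (0.57, limma adjusted p = 0.0159). Its relative near nbeab, n4bp2l2, had 116 and 158 against 168 and 154 (0.25, limma adjusted p = 0.461).

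No other tested gene of the BEACH family fell. These genes encode large proteins of membrane traffic, autophagy and lysosomes that share the BEACH domain. Of the 9 tested besides nbeab, 3 rose and 0 fell (limma), against 6.35% and 6.19% of all genes tested, with a median log2 fold change of 0.34. At an unadjusted p under 0.05, 4 were higher and 1 was lower, against 14.1% and 14.3% of all genes tested. Besides lrba these were wdfy3, for a scaffold of selective autophagy, from 562 and 585 to 925 and 739 (0.53 ± 0.14 (SE), limma adjusted p = 0.0266), and nsmaf, for an adaptor of the tumour necrosis factor receptor in mammals, from 665 and 740 to 997 and 950 (0.47 ± 0.12 (SE), limma adjusted p = 0.0245). The lysosomal traffic gene lyst had 222 and 197 against 346 and 243 (0.47, limma adjusted p = 0.125). The only other member with a negative fold change was nbeal2, known in mammals for platelet granules, with 110 and 76 against 61 and 57 (-0.62, limma adjusted p = 0.136). The values of nbeal1 were 264 and 245 against 306 and 282, those of wdfy4 92 and 90 against 123 and 108, and those of wdr81 681 and 709 against 856 and 800, with adjusted p-values of 0.403, 0.32 and 0.189. In 7 of the 9 both Cre-injected libraries were above both uninjected ones, as they were for 28% of all genes tested. Without uninjected replicate 1 only lrba rose (nsmaf and wdfy3 at adjusted p-values of 0.265 to 0.346), without uninjected replicate 2 none of the 9 did (adjusted p = 0.0542 to 0.199 for lrba, nsmaf and wdfy3), and without Cre-injected replicate 2 lyst rose as well. With equal library totals lrba alone passed the test.

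**Figure D4:**
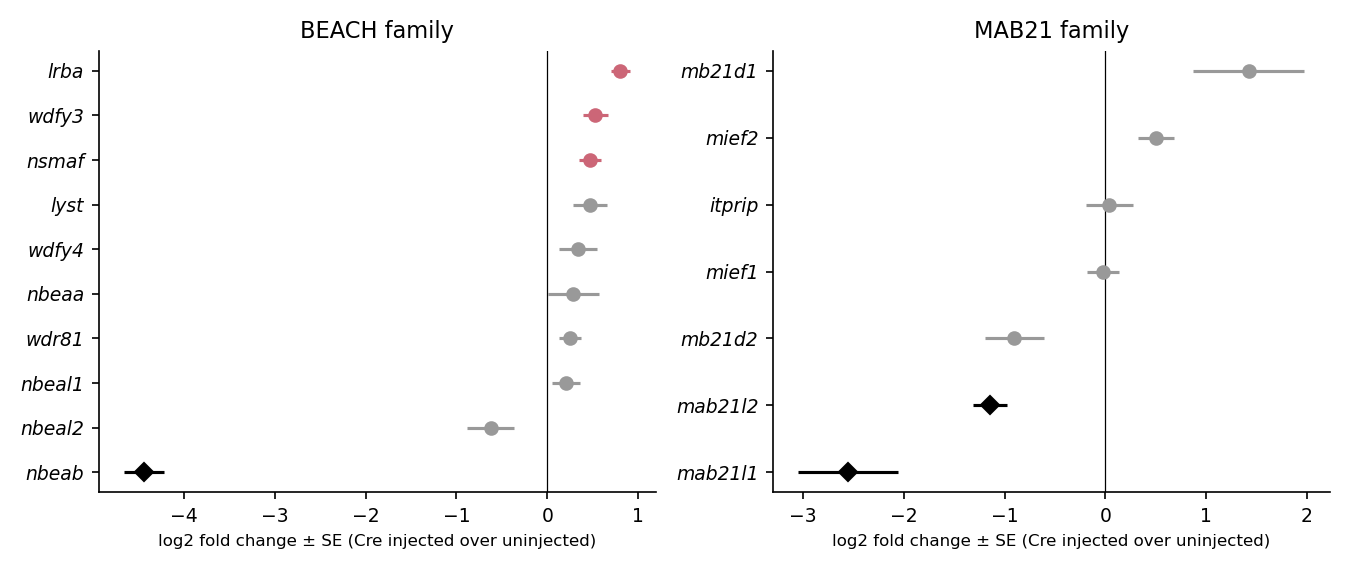
Log2 fold change (Cre-injected over uninjected, ± SE) of the tested genes of the BEACH family (left) and the MAB21 family (right), where red marks genes that rose, grey those that did not pass the test and black diamonds nbeab, mab21l1 and mab21l2, shown without a test. In the BEACH family 3 of 9 other genes rose, and nbeab lies at -4.44; in the MAB21 family none of 5 other genes passed.

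Neurobeachin anchors protein kinase A in mammals, and the genes for this kinase and its anchoring proteins that were called all rose. Most were not called. Of the kinase subunit genes only prkacaa was called. Of 20 tested genes for A-kinase anchoring proteins and protein kinase A subunits, 4 rose and 0 fell (limma), against 6.35% and 6.19% of all genes tested, and the median log2 fold change was 0.13. Of the 20, 8 had a negative fold change. Without overlap between the groups 8 were higher and 4 lower, against 28% and 28.8% of all genes tested. At an unadjusted p under 0.05, 6 were higher and 0 lower, against 14.1% and 14.3%. Those that rose were akap12b, for the scaffold gravin, from 12897 and 12486 to 23833 and 25506 (0.96 ± 0.10 (SE), limma adjusted p = 0.000199), the catalytic subunit gene prkacaa (0.60), akap17a (0.73) and akap9 (0.46), for a scaffold of the centrosome and Golgi. Without uninjected replicate 1, and again without uninjected replicate 2, akap12b alone passed (the others at adjusted p-values of 0.149 to 0.309, or 0.0646 to 0.29). The akap9 call was also lost with equal library totals, with or without mitochondrial and structural RNA genes, and with non-robust shrinkage (adjusted p = 0.0577, 0.0578 and 0.0636). Without Cre-injected replicate 2 akap9 had an adjusted p of 0.0569, and prkacba and prkar1ab rose.

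Among the relatives of the MAB21 genes none passed the test. Besides mab21l1 and mab21l2, 5 genes were tested, with 0 rising and 0 falling (limma), against 6.35% and 6.19% of all genes tested. Of the 5, 2 were higher and 1 was lower at an unadjusted p under 0.05, against 14.1% and 14.3% of all genes tested. The gene mb21d2 had 73 and 61 reads in the uninjected and 40 and 31 in the Cre-injected libraries (log2 fold change -0.90 ± 0.29 (SE), limma adjusted p = 0.065). For mb21d1 the values were 9 and 5 against 17 and 23 (1.42 ± 0.55 (SE), limma adjusted p = 0.115). The mitochondrial fission genes mief1 and mief2 had log2 fold changes of -0.02 and 0.50, and itprip 0.04. Without Cre-injected replicate 1, mief2 rose and mb21d2 fell (adjusted p = 0.0392 and 0.0203), and the signs of itprip and mief1 changed when single libraries were left out.

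Of the genes of the early eye, where the MAB21 genes are known to act, some fell and most did not pass the test. Of 23 tested genes of the eye field and its derivatives 9 fell and 0 rose (limma), against 6.19% and 6.35% of all genes tested. Their median log2 fold change was -0.75, and 20 of 23 were negative. At an unadjusted p under 0.05, 15 were lower and 1 was higher, against 14.3% and 14.1% of all genes tested. The medians of markers of some other tissues were of like size. The median log2 fold change was -0.68 for 3 epidermis markers, of which 2 fell, -0.73 for 3 rows of hatching gland markers, of which 2 fell, and -0.63 for 4 somite and muscle markers, of which 2 fell. The eye list was not tested against these, and its falls are not shown to be particular to the eye. The retinal homeobox gene rx1 went from 141 and 159 to 17 and 22 (log2 fold change -2.89 ± 0.28 (SE), limma adjusted p = 7.08e-05). The gene aldh1a3, for an enzyme of retinoic acid synthesis in the retina, went from 88 and 76 to 18 and 24 (-1.93 ± 0.31 (SE), limma adjusted p = 0.00226). The eye regulator gene pax6a was abundant and less changed, from 674 and 697 to 397 and 426 (-0.74 ± 0.13 (SE), limma adjusted p = 0.00331). The optic stalk gene vax1 went from 67 and 85 to 31 and 18 (-1.63 ± 0.34 (SE), limma adjusted p = 0.00913). The other 5 were foxd1 (-1.44), lhx2b (-0.75), six3a (-0.93), tbx5a (-2.22) and vsx1 (-3.36), the last on 13 and 14 reads against 1 and 0, and so at -1.76 with a pseudocount of 5 and -4.01 with one of 0.5. The fold changes of both mab21l1 and mab21l2 lie within the range of these 9. That range is of called falls only, and both genes were chosen with their own falls known, so nothing follows from it.

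Other eye genes did not pass the test. The eye field gene rx3 had 70 and 73 against 111 and 70 (log2 fold change 0.30, limma adjusted p = 0.495), and pax6b, the relative of pax6a, had 838 and 1000 against 1085 and 897 (0.11, adjusted p = 0.646). The lens gene foxe3 had 22 and 20 against 8 and 1 (-2.37, adjusted p = 0.059). The 4 genes summed as eye field markers, rx3, rx2, six3b and six6b, were all detected, none at 0, and together held 573 and 643 reads in the uninjected and 506 and 426 in the Cre-injected libraries. How far the levels of mab21l1 and mab21l2 follow the amount of eye tissue was not tested. Without uninjected replicate 1 rx1 alone fell, and without uninjected replicate 2 rx1 and aldh1a3 did, while the genes that lost the call had adjusted p-values of 0.0527 to 0.325, or 0.0831 to 0.319. Without Cre-injected replicate 1 there were 13 falls, with tbx5a at -2.81, and without Cre-injected replicate 2 there were 9, and six7 rose.

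Some genes of the midbrain, another site of MAB21 gene expression, were lower as well. Of 17 tested midbrain and tectum genes 4 fell and 0 rose (limma), against 6.19% and 6.35% of all genes tested, with a median log2 fold change of -0.25. At an unadjusted p under 0.05, 5 were lower and 0 higher, against 14.3% and 14.1%. The medians of epidermis, hatching gland and somite and muscle markers were lower than that of this list, at -0.68, -0.73 and -0.63. The falls of midbrain genes are thus not shown to be particular to the midbrain. The paired-box genes pax7a, from 37 and 34 to 8 and 10 (-1.87 ± 0.43 (SE), limma adjusted p = 0.0151), and pax5, from 68 and 44 to 15 and 23 (-1.51 ± 0.38 (SE), limma adjusted p = 0.0221), fell most. The homeobox gene meis2a (-0.98) and the engrailed gene en2b (-0.70) also fell, while pax2a had 1017 and 1054 against 1190 and 1150 (0.18, limma adjusted p = 0.33). Without uninjected replicate 1 none of the 17 passed, without uninjected replicate 2 meis2a alone did (adjusted p of the lost genes 0.0719 to 0.276, or 0.0755 to 0.17), and without Cre-injected replicate 1 en2b had an adjusted p of 0.0554. With non-robust shrinkage it had 0.0649. Leaving out Cre-injected replicate 2 added a rise, that of gbx2.

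Most genes of early neurons, the cells from which neurobeachin is best known, did not pass the test. Of 19 tested 3 fell and 0 rose (limma), against 6.19% and 6.35% of all genes tested, and the median log2 fold change was -0.60. At an unadjusted p under 0.05, 8 were lower and 1 was higher, against 14.3% and 14.1%. The medians of epidermis, hatching gland and somite and muscle markers were of like size, so these falls are not shown to be particular to neurons. The proneural gene neurog1 went from 454 and 342 to 209 and 240 (-0.81 ± 0.17 (SE), limma adjusted p = 0.00962), the microtubule regulator gene stmn1b from 324 and 253 to 131 and 183 (-0.88 ± 0.20 (SE), limma adjusted p = 0.0142), and the motor neuron gene isl2a from 208 and 259 to 153 in both libraries (-0.60 ± 0.18 (SE), limma adjusted p = 0.0467). The isl2a call was lost with equal library totals, upper-quartile scaling and non-robust shrinkage (adjusted p = 0.0511, 0.0513 and 0.0621). Among those that did not pass, fold changes ran from -2.09 for stmn2a to 0.68 for onecut1. The widely used neuron marker elavl3 had 1979 and 2060 against 1742 and 1560 (-0.29, limma adjusted p = 0.108). The 5 neuron markers elavl3, elavl4, neurog1, isl1 and snap25a, none at 0, together held 2741 and 2677 reads in the uninjected and 2200 and 2013 in the Cre-injected libraries, and their part in the fall of nbeab was not tested. Without uninjected replicate 1 none of the 19 fell, without uninjected replicate 2 neurog1 alone did (adjusted p of the lost genes 0.128 to 0.202, or 0.0549 to 0.393), and without Cre-injected replicate 1 or 2 there were 6 falls in each case.

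**Figure D5:**
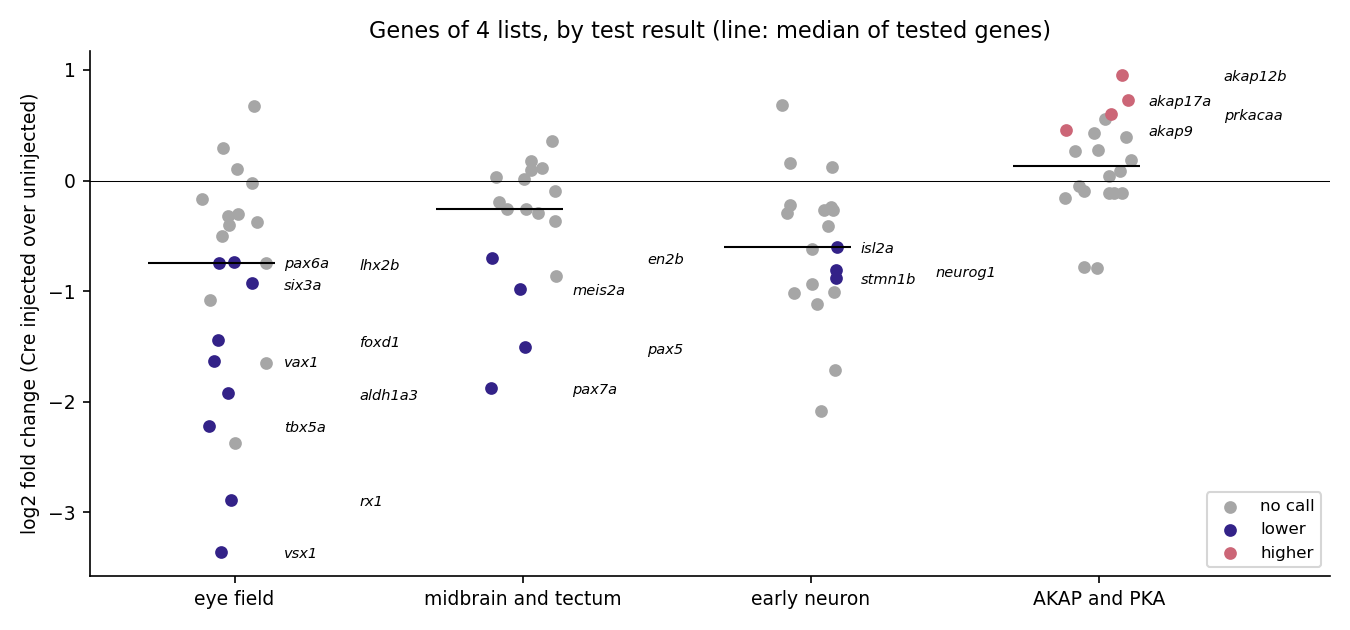
Log2 fold change (Cre-injected over uninjected) of each tested gene of 4 lists, coloured by test result (limma), with the median of each list as a line and the called genes named. Falls numbered 9 of 23 in the eye field list, 4 of 17 in the midbrain and tectum list and 3 of 19 in the early neuron list, and 4 of 20 genes rose in the A-kinase anchoring and protein kinase A list.

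The genes whose profiles over the 4 libraries were most like those of nbeab, mab21l1 and mab21l2 were sought among 12110 tested genes with a mean of at least 20 and a name that is not a clone name. Likeness was the root mean square difference between centred log2(value + 1) profiles. For nbeab the 4 most alike were rows of RF00017, the Rfam family of the RNA of the signal recognition particle, a small structured RNA that guides secreted proteins to the membrane. The nearest, on chromosome 11 from 12679732 to 12680028, had 444 and 750 reads in the uninjected and 17 and 30 in the Cre-injected libraries, a difference of 0.23 from nbeab. The next had 4417 and 3459 against 274 and 294 (0.42), then 1583 and 1520 against 114 and 157 (0.47), and 130 and 86 against 7 and 8 (0.51). The fifth was c4, the complement gene in the same stretch of chromosome 15, at 0.58.

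The family RF00017 as a whole was lower after Cre injection. Of its 67 rows, 65 are on chromosome 11 and 0 on chromosome 15, so no listed copy lies inside nbeab. Of the 62 tested, 51 fell and 1 rose (limma), against 6.19% and 6.35% of all genes tested. The median log2 fold change was -1.56, in a range from -6.35 to 1.78. Summed over the rows there were 142080 and 134548 reads in the uninjected and 52101 and 69575 in the Cre-injected libraries. Members of 1 RNA family may share reads, so how the counting split reads between the rows is uncertain. Whether any reads counted for nbeab come from RNA of this family was not tested.

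The profiles most like mab21l1 and mab21l2 were of other genes. For mab21l1 the closest was gpm6aa, for a membrane glycoprotein of neurons, with 53 and 57 against 13 and 6 (a difference of 0.08), followed by tmem176l.4, derl3, the pyruvate kinase gene pklr and a cardiac actin gene listed as actc1a (0.20 to 0.22). For mab21l2 the closest were dhrs13a.3, with 274 and 262 against 118 and 130 (0.02), hvcn1, cyp2aa4, the muscle gene myl10, with 561 and 536 against 253 and 262 (0.04), and galt (0.05). Between the 3 genes themselves the differences were larger: 1.07 for mab21l1 and nbeab, 0.81 for mab21l1 and mab21l2, and 1.66 for mab21l2 and nbeab. Profiles over 4 libraries in 2 groups are described by little more than the size of the difference, so likeness here is a description.

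As a check of the labels, npas4l, listed under the clone name CABZ01080135.1, had 370 and 279 reads in the uninjected and 710 and 808 in the Cre-injected libraries, with reads of the transgene and of the endogenous gene not separated. Library totals lay between 8933474 and 9861419. Markers of somites, notochord, epidermis, hatching gland, blood and vessels, and germ line were all detected. Of the 3 blood and vessel markers 2 rose, with a median log2 fold change of 0.96, and of the 3 notochord and 3 germ line markers 0 passed, with medians of -0.07 and -0.05 and, at an unadjusted p under 0.05, 1 notochord marker higher. The part of these tissue differences in the results above was not tested. In the uninjected libraries 13% and 17.4% of the total lay in mitochondrial genes, and in the Cre-injected libraries 12.6% and 16.9% did, a difference that follows the replicate number and not the group.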

How the data were processed

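Total RNA (10 ng) was made into stranded libraries and sequenced as single reads of 75 bases, per the labels' protocols. Tools listed in the submitters' processing notes, with no roles, are STAR 2.6.0c, featureCounts 1.6.0, DESeq2 1.14.1, Trimmomatic 0.36 and FastQC 0.11.8, and the genome builds listed there are GRCz11 and danRer11. The deposited table gives 1 score per gene and library, which was taken to be a read count that the authors had scaled with library size factors and then rounded, because some whole numbers are regularly missing or overfilled. Fitting these steps gave size factors of 1.02, 1.03, 0.983 and 0.985 and estimates of 8.78 to 9.74 M assigned reads a library. Each listed gene reaches 5 in at least 1 library.

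The 16754 genes that reached 10 in 2 or more libraries were tested on the log2(value + 1) scale. The tool was limma 3.58.1 (R 4.3.3) with robust shrinkage towards a mean-variance trend, Benjamini-Hochberg adjustment and a threshold of 0.05. The fit was tested on simulated data. Exact counting intervals (Clopper-Pearson) treat summed values as counts. Replicates of a group differed beyond counting noise (median chi-square per gene 1.15 and 1.95), and the labels are silent on whether they are separate clutches. The p-values therefore rest on spread between these samples only, and that spread may be technical. Through the shrinkage they also rest in part on the spread of other genes. Without the mean-variance trend 30 genes were higher and 68 lower, against 1064 and 1037.

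The genes described and the 6 lists were chosen with earlier results of these data known. Genes named by rule were all members of the BEACH and MAB21 families, called genes and nearest neighbours in both stretches, up to 4 members with the smallest p in each other list, and the 5 closest profiles for each of nbeab, mab21l1 and mab21l2. Other genes were named after their values were seen. List members were matched by symbol, alias or identifier, and 1 member of the eye lists is not reported here and is left out of their counts and sums. Figures were drawn with matplotlib 3.10.9.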

Additional observations from a re-analysis of the deposited data

How the results depend on the processing

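Fold changes of nbeab, mab21l1 and mab21l2 kept their sign under all alternatives tried. For mab21l1 a pseudocount of 5 gave a log2 fold change of -2.02. Without the mean-variance trend the calls were 30 higher and 68 lower genes over the table, 1 fall around nbeab, 0 rises and 0 falls around mab21l2, 0 rises in the BEACH and A-kinase lists, 1 fall in the eye list, and 0 falls in the midbrain and neuron lists. Around nbeab 2 genes fell with equal library totals, with upper-quartile scaling and with non-robust shrinkage, and with equal library totals 1 BEACH gene rose.

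Leaving out 1 library gave 228 to 2064 higher and 210 to 1871 lower genes over the table, against 1064 and 1037. The ranges of the counts were 1 to 6 falls around nbeab, 1 to 6 rises and 0 to 5 falls around mab21l2, 0 to 4 rises in the BEACH list, 0 to 1 rises and 0 to 1 falls in the MAB21 list, 1 to 13 falls and 0 to 1 rises in the eye list, 0 to 5 falls and 0 to 1 rises in the midbrain list, 0 to 6 falls in the neuron list and 1 to 5 rises in the A-kinase list. Where 1 library was left in a group, it was assumed to vary like the other group. Log2 fold changes ranged from -4.64 to -4.24 for nbeab, from -3.05 to -2.05 for mab21l1 and from -1.21 to -1.07 for mab21l2. For nbeab over mab21l1, the inverse of the plotted ratio, the mean of the library ratios went from 13.6 to 4.67. That is a log2 change of -1.55, and of -2.55 to -0.96 with 1 library left out. Since means of ratios were compared, its size is not that of the change in the plotted ratio. The ratio of mab21l2 to lrba, chosen after seeing the data, changed by -1.95 (log2), and by -2.00 to -1.91 with 1 library left out. Signs reversed for itprip without uninjected replicate 1 or Cre-injected replicate 1 (range -0.075 to 0.158), for mief1 without uninjected replicate 2 or Cre-injected replicate 1 (-0.132 to 0.084) and for nbeaa without uninjected replicate 1 (-0.00478 to 0.58). The causes of these changes were not tested.

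The labels give same-numbered libraries nothing in common but the number, and their deviations from the group means had a correlation of -0.03 over 16754 genes, although the share of mitochondrial genes was closer by number than by group. The number was not taken as a pairing. With the replicate block 1132 genes were higher and 1121 lower, and around nbeab 4 fell. With 2 libraries a group, differences of low genes such as mab21l1 are the least precise.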
